A study of Homo sapiens with 18 samples.

Results

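The genes described are 10 protein kinases of the CMGC group that are relatives of the CLK splicing kinases: SRPK1, SRPK2, PRPF4B, DYRK1A, DYRK1B, DYRK2, DYRK3, HIPK1, HIPK2 and HIPK3. They were found by matching the Ensembl identifier of each row of the deposited count files to these symbols, which gave 10 of 57905 genes, and all 10 passed the filter on low counts in every fit. RNA was sequenced from KMS12-BM, a human line labelled as multiple myeloma, and from JJN3, a human line labelled as plasma cell leukemia. KMS12-BM cells received amiloride at 0.1 mM, TG003 at 0.4 mM or the DMSO control, and JJN3 cells received amiloride at 0.4 mM, TG003 at 0.4 mM or the DMSO control. Each of the 6 groups held 3 libraries, the drug groups were exposed for 24 h, and the labels call the controls untreated with DMSO and give them no duration. Amiloride is a diuretic that blocks epithelial sodium channels. TG003 is an inhibitor of the CLK kinases and is also known to inhibit DYRK1A in vitro. Each line stands for a single established tumour line, KMS12-BM was grown with more serum than JJN3, and the labels do not state whether separate cultures were used for the 3 libraries of each group, so p-values measure the spread between libraries, which may be technical.

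SRPK1 and SRPK2 phosphorylate the arginine-serine stretches of SR splicing proteins, mainly in the cytoplasm, which lets these proteins enter the nucleus, where the CLK kinases add further phosphates. PRPF4B sits on the spliceosome and phosphorylates its components PRPF6 and PRPF31. The DYRK kinases switch themselves on by phosphorylating a tyrosine of their own while they are being made and then act on serine and threonine: DYRK1A on NFAT factors, cell cycle regulators and splicing proteins, DYRK1B in quiescence and survival, DYRK2 on the proteasome and on a ubiquitin ligase complex, and DYRK3 in dissolving stress granules and other condensates. The HIPK kinases are nuclear and act on transcription factors and corepressors, HIPK2 being best known for phosphorylating p53 after DNA damage.

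On GRCh37 (hg19, the build named for the deposited counts) the genes lie apart from one another in the genome. SRPK1 is at chr6:35800743-35889119 and SRPK2 at chr7:104751151-105039755, both on the minus strand, and PRPF4B is at chr6:4021501-4065217 on the plus strand. DYRK1A is at chr21:38737875-38898660, DYRK2 at chr12:68042118-68059186 and DYRK3 at chr1:206808881-206857764, all on the plus strand, and DYRK1B at chr19:40315990-40324841 on the minus strand. HIPK1 is at chr1:114471946-114520491 and HIPK3 at chr11:33278218-33378569 on the plus strand, and HIPK2 at chr7:139246316-139477797 on the minus strand. The deposited counts are per gene and do not separate isoforms.

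Between 23707695 and 50570234 reads per library fell in genes. Of the 7 plasma cell markers checked, IRF4 lay between 436 and 2210 CPM (reads scaled by library size to a common total) and XBP1 between 129 and 542 CPM, while SDC1 reached down to 2.35 CPM and CD38 down to 2.07 CPM. Of the 7 matched markers of other cells, CD3E, CD14, MS4A1, COL1A1 and NKG7 did not exceed 5.37 CPM in any library, while HBB reached 65.8 CPM and EPCAM lay between 19.7 and 189 CPM. The 6 TG003 libraries stood apart from the other 12: processed pseudogenes took 0.073% to 0.097% of their reads in genes, against 4.22% to 5.28% in the amiloride and DMSO libraries. Reads aligned at more than 1 place made up 7.79% to 9.13% of the records in TG003 libraries and 13.3% to 17.4% in the others. Reads outside any annotated feature made up 6.42% to 8.17% in TG003 libraries and 11.42% to 13.55% in the others. What set the TG003 libraries apart was not tested, and in every comparison with TG003 it cannot be told apart from the drug. The share of mitochondrial reads was low in the amiloride libraries, at 0.265% to 0.448% in KMS12-BM against 3.86% to 4.25% with DMSO, and at 0.709% to 1.03% in JJN3 against 2.06% to 2.61% with DMSO.

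Levels are compared between genes as CPM per kilobase of annotated exon (CPM per kb), and within a gene as CPM; in bulk RNA, fewer cells and less RNA per cell cannot be told apart. SRPK1 was the most abundant messenger of the 10 in all 6 groups, and DYRK3 the least abundant. In KMS12-BM with DMSO the order by CPM per kb was SRPK1 (52.4 ± 1.29, SD, n = 3 in each case), SRPK2 (21.5 ± 0.945), PRPF4B (16.8 ± 0.255), HIPK1 (11.4 ± 0.109), DYRK2 (10.0 ± 0.105), HIPK3 (7.72 ± 0.0722), DYRK1A (3.81 ± 0.171), HIPK2 (2.74 ± 0.0781), DYRK1B (0.783 ± 0.0883) and DYRK3 (0.295 ± 0.0389). In that group every gene lay above the next one in all 3 libraries. In JJN3 with DMSO the order was SRPK1 (55.4 ± 2.99), HIPK1 (24.5 ± 1.79), PRPF4B (16.5 ± 0.627), HIPK3 (9.60 ± 0.791), SRPK2 (6.66 ± 0.519), DYRK2 (6.2 ± 0.464), HIPK2 (6.04 ± 0.710), DYRK1A (2.5 ± 0.105), DYRK1B (0.814 ± 0.116) and DYRK3 (0.468 ± 0.0615). There the levels of SRPK2, DYRK2 and HIPK2 overlapped between libraries and could not be ordered. With the longest transcript in place of all exons as the length, the order was the same in both DMSO groups. SRPK2 thus changed place between the lines: it was above PRPF4B, HIPK1 and HIPK3 in KMS12-BM and below all 3 in JJN3.

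**Figure D1:**
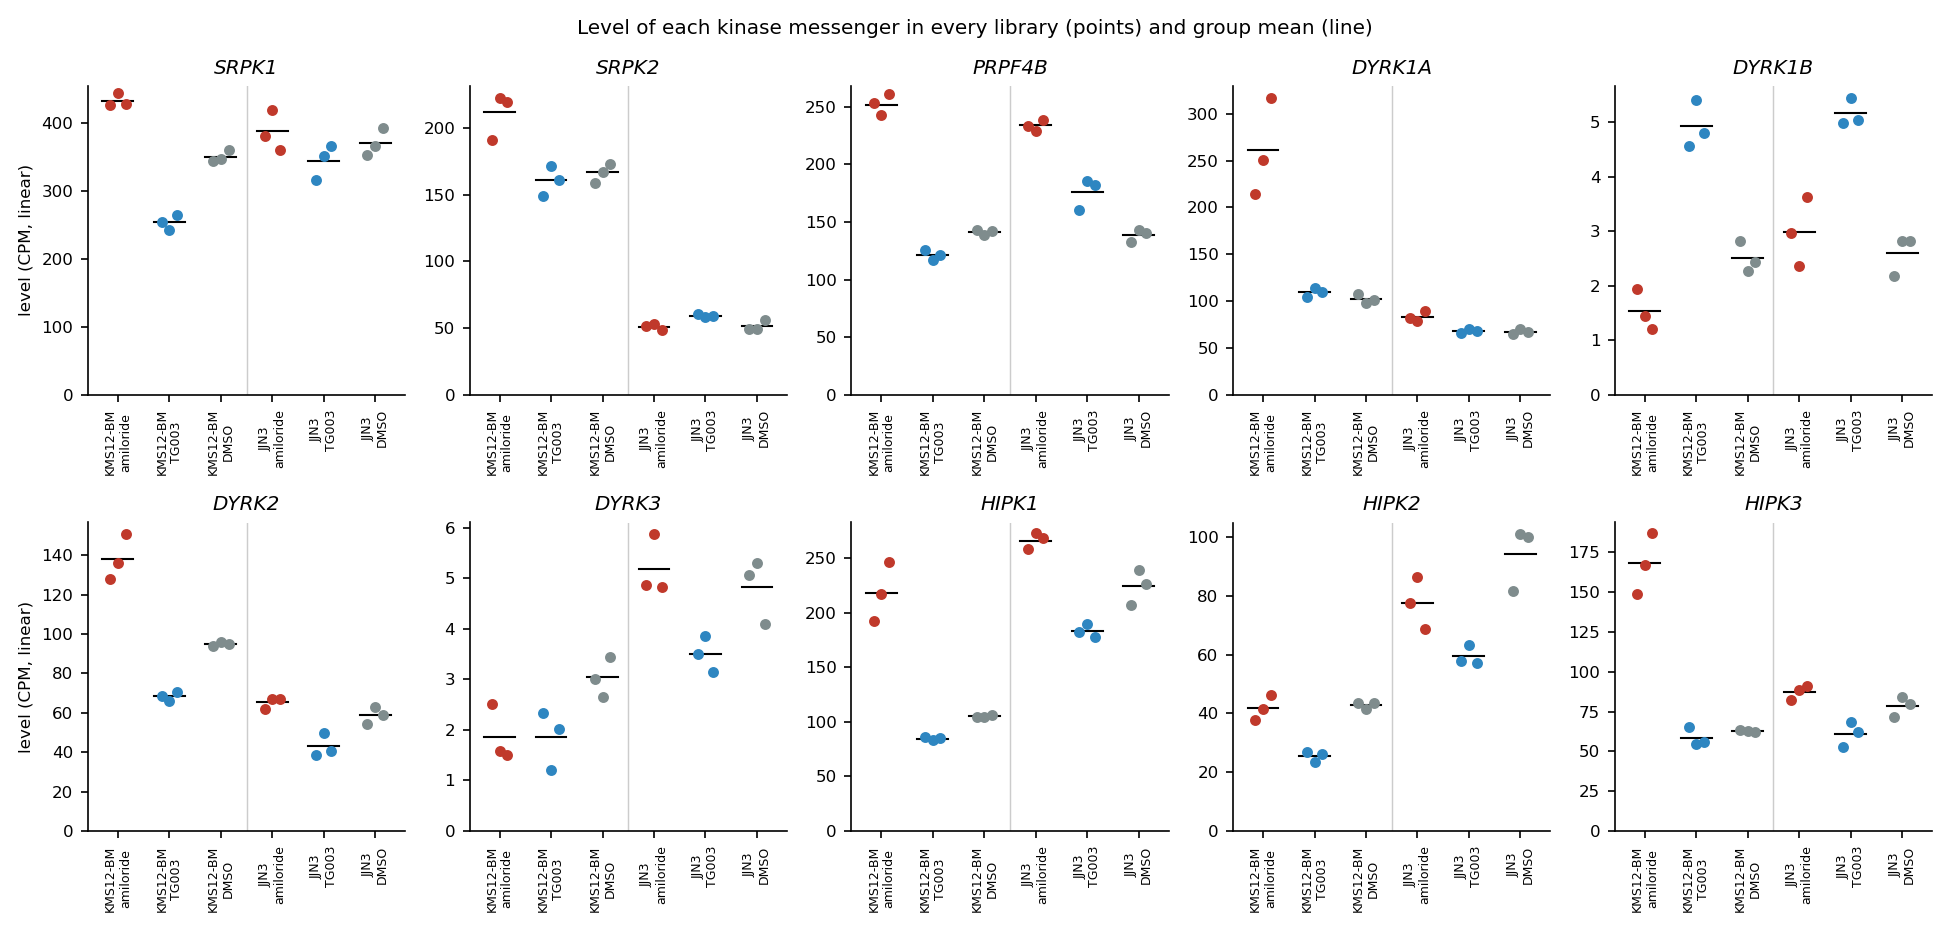
Level of each kinase messenger in CPM on a linear axis that starts at 0, with 1 point per library and a line at the mean of the 3 libraries of a group. Within each line amiloride stands left, TG003 in the middle and DMSO right. HIPK3 in KMS12-BM lay between 149 and 187 CPM with amiloride and between 62.4 and 63.5 CPM with DMSO, and DYRK1B in both lines lay higher with TG003 than with DMSO in every library.

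DYRK1B and DYRK3 were the members with the fewest reads, 36 to 240 and 38 to 227 per library, and their errors were accordingly wide. The 250 bases before their annotated starts are shown. With TG003, DYRK1B was called higher and DYRK3 lower in both lines, DYRK3's calls being lost without single libraries. DYRK2, HIPK1 and HIPK2 were also called lower in both lines. No promoter was held for DYRK2 or HIPK2, and those of HIPK1 are not shown. The sequences are from RefSeq's promoter table (GRCh38.p14), which held 7 of the 10 members; capitals mark matches on either strand to 6 motifs searched by letters. DYRK1B lies on the minus strand at chr19:39834163-39834412 and DYRK3 on the plus strand at chr1:206635286-206635535.
DYRK1B: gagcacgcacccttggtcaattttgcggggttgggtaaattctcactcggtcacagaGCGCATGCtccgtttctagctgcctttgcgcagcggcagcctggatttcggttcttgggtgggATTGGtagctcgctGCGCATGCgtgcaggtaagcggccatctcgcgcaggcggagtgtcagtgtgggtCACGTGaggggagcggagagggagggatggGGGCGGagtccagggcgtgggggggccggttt
DYRK3: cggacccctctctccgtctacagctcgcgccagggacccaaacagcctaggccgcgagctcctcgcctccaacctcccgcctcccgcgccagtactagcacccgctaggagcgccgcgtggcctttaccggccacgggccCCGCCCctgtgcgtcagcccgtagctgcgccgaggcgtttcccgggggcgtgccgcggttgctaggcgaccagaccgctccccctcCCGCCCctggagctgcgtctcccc
The DYRK1B window held 2 matches to the NRF1 core GCATGCGC, which 2.6% of 35116 promoter windows of that length contain, 1 E-box CACGTG (6.3% of windows), 1 CCAAT box (32%) and 1 GC box GGGCGG (42.6%). The DYRK3 window held 2 GC boxes and no other motif searched. Neither window held the cyclic AMP response element TGACGTCA (1.6% of windows) or the ETS core CCGGAAGT (3.4%), and no match overlapped another. Of the bases shown, 63.2% were G or C for DYRK1B and 73.6% for DYRK3.

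Amiloride at 0.1 mM moved most of these kinases in KMS12-BM. Of the 10 genes, 7 were higher and 2 lower than with DMSO at an adjusted p under 0.05 (edgeR's quasi-likelihood test, Benjamini-Hochberg over all genes), while 68.7% of the 15765 genes tested were called either way, 33.5% higher and 35.2% lower. The median log2 fold change was 0.444 over the 10 genes and -0.020 over all genes tested. It also depended on the GC content of transcripts, taken up below: the median was 0.39 among coding genes of up to 40.4% GC and -0.63 among those of 58.4% or more. The largest rises were those of HIPK3, DYRK1A and HIPK1, and the 2 genes that fell were the scarce DYRK1B and DYRK3. The mitochondrial share given above was lower in the same libraries, and its part in these values was not tested.

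HIPK3, a nuclear kinase of transcription regulators, was at 149, 167 and 187 CPM with amiloride and at 63.5, 63.1 and 62.4 CPM with DMSO. This was a 2.66-fold rise (log2 fold change 1.41 ± 0.10, where ± is the standard error (SE); adjusted p = 2.48e-07). DYRK1A, whose gene is on chromosome 21 and whose dose matters in Down syndrome, was at 214, 251 and 317 CPM with amiloride and at 107, 97.7 and 101 CPM with DMSO. It rose 2.55-fold (1.35 ± 0.12, adjusted p = 1.86e-06), with its amiloride libraries far apart from one another. HIPK1 was at 192, 217 and 246 CPM with amiloride and at 104, 104 and 106 CPM with DMSO, a 2.09-fold rise (1.06 ± 0.08, adjusted p = 7.89e-07). For these genes the lowest amiloride library lay well above the highest DMSO library.

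PRPF4B, the spliceosomal kinase, was at 253, 243 and 261 CPM with amiloride and at 143, 139 and 142 CPM with DMSO, and rose by 0.84 ± 0.06 (adjusted p = 5.45e-07). DYRK2 rose by 0.54 ± 0.07 (adjusted p = 4.64e-05), with 128, 136 and 151 CPM in amiloride libraries and 94.0, 96.0 and 94.8 CPM in DMSO libraries. The SRPK genes rose least: SRPK1 by 0.30 ± 0.06 (adjusted p = 0.00101), at 427, 445 and 428 CPM with amiloride and 344, 348 and 361 CPM with DMSO. SRPK2 rose by 0.35 ± 0.08 (adjusted p = 0.00254), at 191, 223 and 220 CPM with amiloride and 159, 167 and 173 CPM with DMSO. In each of these 4 genes all amiloride libraries lay above all DMSO libraries. HIPK2 alone was not called: it stood at 37.6, 41.5 and 46.2 CPM with amiloride and at 43.5, 41.4 and 43.6 CPM with DMSO (-0.04, 95% interval -0.24 to 0.17). Over the 10 genes, in 9 the amiloride and DMSO libraries did not overlap, against 71.7% of all genes tested.

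DYRK1B was at 1.94, 1.45 and 1.21 CPM with amiloride and at 2.81, 2.26 and 2.43 CPM with DMSO, a fall of log2 -0.69 ± 0.19 (adjusted p = 0.00676). DYRK3 was at 2.51, 1.59 and 1.51 CPM with amiloride and at 3.01, 2.65 and 3.45 CPM with DMSO, a fall of -0.70 ± 0.26 (adjusted p = 0.0298). The ranges did not overlap in either gene, but DYRK3's call rested on single libraries. Without amiloride replicate 2 or 3, or without DMSO replicate 1 or 3, the adjusted p was 0.104, 0.0923, 0.0530 and 0.0954, with fold changes between -0.70 and -0.58.

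The amiloride response in KMS12-BM moved with the GC content of transcripts across all coding genes. Its median log2 fold change was 0.39 among coding genes of up to 40.4% GC and -0.63 among coding genes of 58.4% GC or more. Of the 10 kinases, 9 have between 37% (PRPF4B) and 49.8% (HIPK2) GC in their longest transcript, and DYRK1B has 65.7%. With the GC trend removed in each library, 7 of the 10 remained called: HIPK3 at 1.06 ± 0.09, DYRK1A at 1.05 ± 0.10, HIPK1 at 0.83 ± 0.07, PRPF4B at 0.43 ± 0.07, DYRK2 at 0.20 ± 0.07, SRPK1 at 0.16 ± 0.06 and DYRK3 at -0.95 ± 0.26. SRPK2 was then at -0.003 ± 0.067 (adjusted p = 0.976) and DYRK1B at 0.14 ± 0.18 (adjusted p = 0.510), so neither its rise nor the fall of DYRK1B held in that fit. Whether GC content or a process that tracks it is behind these shifts was not tested. Of the other 3 drug comparisons, none had a median further from 0 than 0.13 in its own low-GC or high-GC class.

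**Figure D2:**
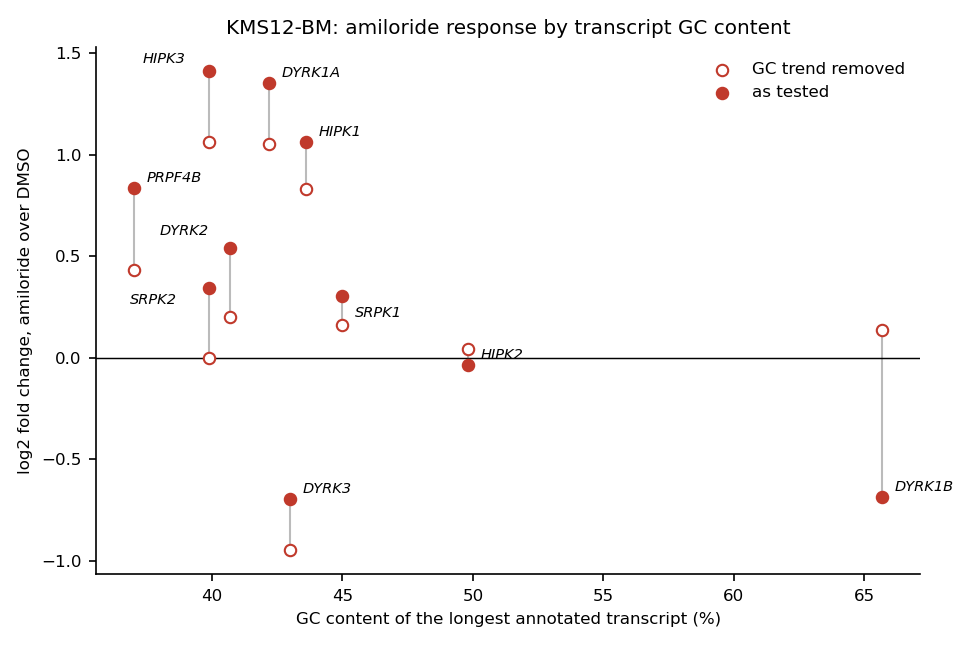
Log2 fold change of each kinase, amiloride over DMSO in KMS12-BM, against the GC content of its longest annotated transcript in percent. Filled points are the values as tested and open points, joined to them by a grey line, the values with the GC trend removed. HIPK3, DYRK1A and HIPK1 stay highest, SRPK2 moves to -0.003 and DYRK1B crosses 0 to 0.14.

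In JJN3, amiloride at 0.4 mM moved fewer of the kinases and also fewer of all genes tested. It raised 3 and lowered 1 of the 10, where 43.6% of 15704 genes tested were called, 19.7% higher and 23.9% lower. The median log2 fold change was 0.148 over the 10 genes and -0.034 over all genes tested. PRPF4B rose most, to 233, 229 and 239 CPM with amiloride, against 133, 143 and 140 CPM with DMSO (0.75 ± 0.07, adjusted p = 9.46e-06). DYRK1A was at 81.5, 79.0 and 89.5 CPM with amiloride and at 64.3, 69.9 and 66.3 CPM with DMSO (0.31 ± 0.07, adjusted p = 0.00353). HIPK1 was at 258, 273 and 268 CPM with amiloride and at 207, 239 and 226 CPM with DMSO (0.24 ± 0.07, adjusted p = 0.0115). In these 3 genes all amiloride libraries lay above all DMSO libraries. A separation in either direction was found for 3 of the 10 kinases and for 51.7% of all genes tested.

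HIPK2 fell by 0.29 ± 0.10 in JJN3 with amiloride (adjusted p = 0.0274), at 77.4, 86.4 and 68.6 CPM with amiloride and 81.5, 101 and 100 CPM with DMSO. Its ranges overlapped, and the call was lost without amiloride replicate 1 or 3 (adjusted p = 0.0542 and 0.105), without DMSO replicate 2 or 3 (0.101 and 0.0984), and when the compared groups were fitted alone (0.0631). The other 6 genes were not called: HIPK3 (0.15, 95% interval -0.05 to 0.35), DYRK2 (0.15, -0.06 to 0.35), DYRK1B (0.19, -0.19 to 0.58), DYRK3 (0.09, -0.21 to 0.40), SRPK1 (0.06, -0.11 to 0.23) and SRPK2 (-0.03, -0.19 to 0.13). The intervals of HIPK3, DYRK2 and SRPK2 lay below their intervals in KMS12-BM (1.2 to 1.62, 0.38 to 0.7 and 0.17 to 0.52). That of SRPK1 overlapped its KMS12-BM interval (0.17 to 0.44). The difference between the lines is tested below.

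The difference between the lines in the amiloride response, tested as an interaction in 1 fit to all 18 libraries, was called for 7 of the 10 kinases, where 43.2% of 17772 genes were called, 21.6% in each direction. The doses of amiloride differed between the lines, so line and dose cannot be told apart here. HIPK3 differed most, its log2 response being 1.25 ± 0.14 higher in KMS12-BM than in JJN3 (adjusted p = 5.48e-07). DYRK1A followed at 1.03 ± 0.14 (adjusted p = 6.95e-06) and HIPK1 at 0.81 ± 0.11 (adjusted p = 5.61e-06). DYRK2 (0.39 ± 0.13, adjusted p = 0.0160) and SRPK2 (0.37 ± 0.11, adjusted p = 0.0112) also rose more in KMS12-BM, and DYRK1B (-0.88 ± 0.27, adjusted p = 0.0103) and DYRK3 (-0.80 ± 0.30, adjusted p = 0.0339) had the lower response there. PRPF4B, which rose in both lines, differed by 0.08 (95% interval -0.11 to 0.28), and with the GC trend removed by -0.24 ± 0.09 (adjusted p = 0.0491). The removal of that trend also ended the calls of SRPK2, DYRK2 and DYRK1B (adjusted p = 0.562, 0.381 and 0.257) and left those of HIPK3, DYRK1A, HIPK1 and DYRK3. DYRK2's call was lost without KMS12-BM amiloride replicate 3 or JJN3 DMSO replicate 2 (adjusted p = 0.0513 and 0.0550). DYRK3's call was lost without KMS12-BM amiloride replicate 2 or 3, KMS12-BM DMSO replicate 3, JJN3 amiloride replicate 2 or JJN3 DMSO replicate 3 (adjusted p between 0.0819 and 0.0933). SRPK1 was not called (0.24 ± 0.10, adjusted p = 0.0650), and was called without JJN3 amiloride replicate 2 (0.0260).

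**Figure D3:**
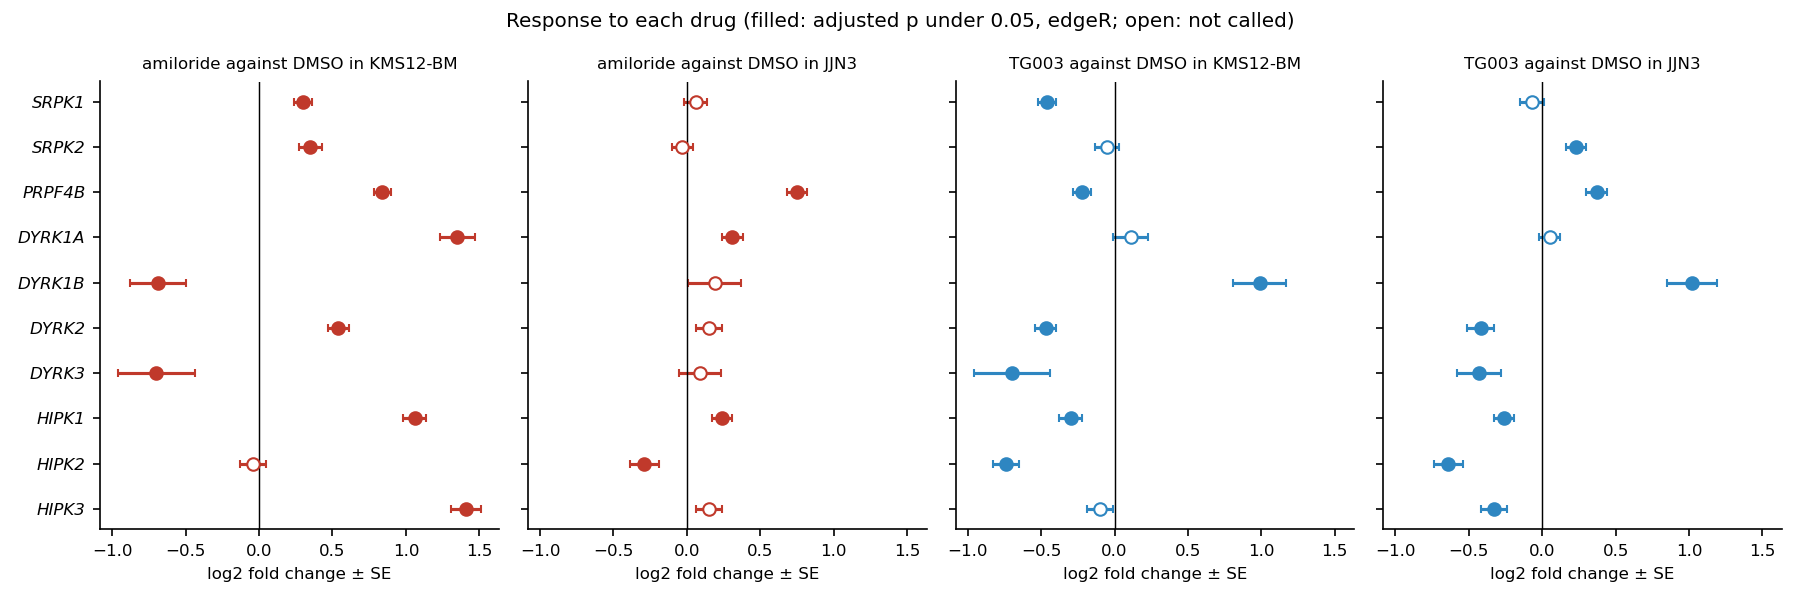
Log2 fold change of each kinase, drug over DMSO, with its standard error as a horizontal bar, in 4 panels: amiloride in KMS12-BM, amiloride in JJN3, TG003 in KMS12-BM and TG003 in JJN3. Filled points have an adjusted p under 0.05 (edgeR) and open points do not. DYRK1B is near 1 in both TG003 panels while HIPK2 is at -0.74 and -0.64.

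TG003 at 0.4 mM lowered most of the kinases it moved in KMS12-BM. Of the 10 genes 6 were lower and 1 was higher than with DMSO, where 58.6% of 15765 genes were called, 26.9% higher and 31.7% lower. The median log2 fold change was -0.258 over the 10 genes and -0.028 over all genes tested. The gene that rose was DYRK1B, at 4.56, 5.40 and 4.80 CPM with TG003 and at 2.81, 2.26 and 2.43 CPM with DMSO (0.99 ± 0.18, 1.98-fold, adjusted p = 0.000554). Each TG003 library held 170 to 195 reads of it, against 83 to 121 in DMSO libraries. HIPK2 fell most among the abundant genes, to 26.8, 23.5 and 26.3 CPM with TG003, against 43.5, 41.4 and 43.6 CPM with DMSO (-0.74 ± 0.09, adjusted p = 4.43e-05).

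DYRK2 was at 68.7, 65.9 and 70.4 CPM with TG003 and 94.0, 96.0 and 94.8 CPM with DMSO (-0.47 ± 0.07, adjusted p = 0.000236). SRPK1 was at 254, 243 and 265 CPM with TG003 and 344, 348 and 361 CPM with DMSO (-0.46 ± 0.06, adjusted p = 7.53e-05). Both genes had all TG003 libraries below all DMSO libraries, a separation in either direction found for 7 of the 10 kinases and for 68.6% of all genes tested. HIPK1 was at 86.1, 83.2 and 84.8 CPM with TG003 and 104, 104 and 106 CPM with DMSO (-0.30 ± 0.08, adjusted p = 0.00982). PRPF4B was at 126, 117 and 121 CPM with TG003 and 143, 139 and 142 CPM with DMSO (-0.22 ± 0.06, adjusted p = 0.0117). These were small falls that the close agreement of the libraries made detectable. DYRK3 fell by 0.70 ± 0.26 (adjusted p = 0.0352), at 2.34, 1.21 and 2.02 CPM with TG003 and 3.01, 2.65 and 3.45 CPM with DMSO. That call was lost without TG003 replicate 2 or 3 (adjusted p = 0.121 and 0.0611) or DMSO replicate 1 or 3 (0.0621 and 0.109). DYRK1A (0.11, 95% interval -0.15 to 0.37), SRPK2 (-0.05, -0.22 to 0.13) and HIPK3 (-0.10, -0.30 to 0.11) were not called.

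In JJN3, TG003 raised 3 and lowered 5 of the 10 kinases, where 58.3% of 15704 genes were called, 26.2% higher and 32.1% lower. The median log2 fold change was -0.167 over the 10 genes and -0.038 over all genes tested. DYRK1B was at 4.98, 5.45 and 5.04 CPM with TG003 and at 2.17, 2.82 and 2.81 CPM with DMSO (1.02 ± 0.17, 2.03-fold, adjusted p = 0.000237). Its libraries held 135 to 240 reads of DYRK1B with TG003 and 60 to 100 with DMSO. PRPF4B rose to 160, 186 and 182 CPM with TG003, against 133, 143 and 140 CPM with DMSO (0.37 ± 0.07, adjusted p = 0.000609). SRPK2 was at 60.5, 58.6 and 58.7 CPM with TG003 and at 49.2, 49.4 and 56.3 CPM with DMSO (0.23 ± 0.07, adjusted p = 0.0179). Of these 3 calls, only SRPK2's was lost under an alternative or without a library: the adjusted p was 0.0625, 0.0825 and 0.0531 without DMSO replicate 1, DMSO replicate 2 or TG003 replicate 1, 0.0747 with the GC trend removed and 0.0726 with the reads of its pseudogene SRPK2P added.

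HIPK2 fell most in JJN3 too, to 57.8, 63.2 and 57.1 CPM with TG003, against 81.5, 101 and 100 CPM with DMSO (-0.64 ± 0.10, adjusted p = 1e-04). DYRK2 was at 38.5, 49.9 and 40.6 CPM with TG003 and 54.3, 63.1 and 58.9 CPM with DMSO (-0.42 ± 0.09, adjusted p = 0.00198). HIPK3 was at 52.8, 68.3 and 61.9 CPM with TG003 and 71.3, 84.0 and 79.8 CPM with DMSO (-0.33 ± 0.09, adjusted p = 0.00818). All 3 genes had their TG003 libraries below their DMSO libraries, which with the genes above and below made 8 of the 10 kinases without overlap, against 66.3% of all genes tested. HIPK1 was at 182, 190 and 178 CPM with TG003 and 207, 239 and 226 CPM with DMSO (-0.26 ± 0.07, adjusted p = 0.00527). DYRK3 was at 3.51, 3.86 and 3.15 CPM with TG003 and 5.07, 5.30 and 4.10 CPM with DMSO (-0.43 ± 0.15, adjusted p = 0.0215). DYRK3's call was again lost on leaving out single libraries, namely DMSO replicate 1 or 2 or TG003 replicate 3 (adjusted p = 0.0656, 0.0920 and 0.0891). SRPK1 (-0.07, 95% interval -0.24 to 0.10) and DYRK1A (0.05, -0.10 to 0.21) were not called.

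The response to TG003, given at the same dose to both lines, differed between the lines for 2 of the 10 kinases, where 13.9% of 17772 genes were called, 7.13% with a higher and 6.80% with a lower response in KMS12-BM. PRPF4B's log2 response was 0.57 lower in KMS12-BM than in JJN3 (-0.57 ± 0.09, adjusted p = 0.000508), since it fell in KMS12-BM and rose in JJN3. SRPK1's was lower by 0.36 (-0.36 ± 0.10, adjusted p = 0.0216). That call was lost without KMS12-BM TG003 replicate 2 (adjusted p = 0.0626), KMS12-BM DMSO replicate 3 (0.0523), JJN3 TG003 replicate 2 or 3 (0.0503 and 0.0678) or JJN3 DMSO replicate 1 (0.0510). For DYRK1B the difference between the lines was -0.01 with a 95% interval of -0.54 to 0.52, and for HIPK2 -0.08 with an interval of -0.38 to 0.22. The pseudogene and multiple-alignment shares given above set the TG003 libraries apart in both lines. An alternative chosen after seeing the data restricted scaling and tests to nuclear coding genes without a named pseudogene and the 10 kinases. In it, 7 kinases in KMS12-BM and 8 in JJN3 were called with TG003 against DMSO. SRPK2 was added in the difference between lines (-0.33 ± 0.10, adjusted p = 0.0317). The kinases' own counts were unchanged in that fit, so it cannot show how far the library difference reaches into them.

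Amiloride and TG003 were given at a matched dose of 0.4 mM in JJN3, and were compared there directly. The pseudogene and multiple-alignment shares also differed between these libraries, so drug and library difference cannot be told apart here. With amiloride 7 of the 10 kinases were higher and 2 lower than with TG003, where 62.2% of 15704 genes were called, 33.3% higher and 28.9% lower. The libraries did not overlap for 9 of the 10, against 67.3% of all genes. The widest differences were those of DYRK1B, lower with amiloride (-0.83 ± 0.17, adjusted p = 0.000823), and of DYRK2, higher with amiloride (0.56 ± 0.09, adjusted p = 0.000166). DYRK3 (0.53 ± 0.14), HIPK1 (0.50 ± 0.07), HIPK3 (0.48 ± 0.09), PRPF4B (0.37 ± 0.07), HIPK2 (0.35 ± 0.10) and DYRK1A (0.26 ± 0.07) were higher with amiloride, at adjusted p between 2.9e-05 and 0.00736. SRPK2 was lower (-0.26 ± 0.07, adjusted p = 0.00874). SRPK1 was not called (0.13, 95% interval -0.04 to 0.30). In KMS12-BM the doses differed and no comparison was made; there DYRK1A averaged 261 ± 52.3 CPM with amiloride and 110 ± 5.22 CPM with TG003, and DYRK1B 1.53 ± 0.374 CPM with amiloride and 4.92 ± 0.436 CPM with TG003 (SD, n = 3).

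The DMSO groups set the lines themselves side by side. KMS12-BM was higher than JJN3 for 3 kinases and lower for 4, where 76.0% of 17772 genes were called, 36.8% higher and 39.3% lower. The libraries did not overlap for these 7, against 78.5% of all genes. SRPK2 differed most, at 159, 167 and 173 CPM in KMS12-BM and at 49.2, 49.4 and 56.3 CPM in JJN3, 3.23-fold (1.69 ± 0.08, adjusted p = 7.95e-14). DYRK2 (0.69 ± 0.09, adjusted p = 5.62e-07) and DYRK1A (0.61 ± 0.10, adjusted p = 1.64e-05) were also higher in KMS12-BM. All 3 HIPK genes were lower there: HIPK2 by 1.14 (-1.14 ± 0.10, adjusted p = 2.15e-09), at 43.5, 41.4 and 43.6 CPM in KMS12-BM and 81.5, 101 and 100 CPM in JJN3. HIPK1 was lower by a like amount (-1.10 ± 0.08, adjusted p = 6.73e-11), at 104, 104 and 106 CPM in KMS12-BM and 207, 239 and 226 CPM in JJN3. HIPK3 was slightly lower (-0.32 ± 0.10, adjusted p = 0.00722), and DYRK3 lower by 0.67 (-0.67 ± 0.21, adjusted p = 0.00625). SRPK1, PRPF4B and DYRK1B were not called, with 95% intervals of -0.23 to 0.07, -0.11 to 0.17 and -0.45 to 0.32. Markers moved with the line as well: HBB, of the erythroid lineage, averaged 0.0314 ± 0.0302 CPM in KMS12-BM and 59.9 ± 8.07 CPM in JJN3, and EPCAM, of epithelia, 113 ± 8.13 CPM in KMS12-BM and 24.5 ± 1.95 CPM in JJN3 (SD, n = 3). The plasma cell marker SDC1 averaged 13.6 ± 0.488 CPM in KMS12-BM and 162 ± 12.2 CPM in JJN3, and CD38 99.9 ± 11.6 CPM in KMS12-BM and 4.34 ± 0.976 CPM in JJN3. Their part in the line differences was not tested.

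SRPK2 needs a limit of its own, because its 3′ end overlaps that of KMT2E, a histone methyltransferase family gene on the opposite strand, and the strand setting of the counting is not given in the sources used here. KMT2E had 104189 reads over all libraries and SRPK2 77511. In the line comparison KMT2E's log2 fold change was 1.43 ± 0.09, beside 1.69 for SRPK2, and with amiloride in KMS12-BM it was 0.48 ± 0.09, beside 0.35. With TG003 in JJN3 it was -0.09 ± 0.07, not called, beside 0.23 for SRPK2. The part of shared reads in SRPK2's values was not tested. No gene on the opposite strand of another member had more than 3.56% of that member's reads. DYRK1A, DYRK3 and HIPK3 each overlap 1 further annotated gene on their own strand, and reads from such a stretch could have been given to either gene or dropped. The named pseudogenes SRPK2P and PRPF4BP1 had 1096 and 678 reads over all libraries, beside 77511 for SRPK2 and 113760 for PRPF4B.

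The makeup of each family followed from these changes and is given as shares of the summed CPM per kb of its members described here, as a description. The further paralogues SRPK3, DYRK4 and HIPK4 are not in these sums. DYRK4 averaged 15.4 CPM over the KMS12-BM libraries and 10.9 CPM over the JJN3 libraries. SRPK2 made up 29.1% ± 0.492 of the SRPK sum in KMS12-BM with DMSO and 10.7% ± 0.280 in JJN3 with DMSO (SD, n = 3), the rest being SRPK1. With amiloride in KMS12-BM, DYRK1A made up 38.7% ± 3.10 of the DYRK sum, against 25.5% ± 0.853 with DMSO, and DYRK1B 1.98% ± 0.695, against 5.24% ± 0.531. With TG003, DYRK1B made up 11.8% ± 1.0 of the sum in KMS12-BM, against 5.24% ± 0.531 with DMSO, and 17.9% ± 0.732 in JJN3, against 8.13% ± 0.762 with DMSO. By CPM per kb, DYRK2 remained the leading one of these DYRK messengers in all 6 groups, with mean shares from 50.1% to 67.2%. The DYRK shares depend on the length used, which is 26.76 kb of exon for DYRK1A and 9.47 kb for DYRK2. With amiloride in KMS12-BM, DYRK1A averaged 261 CPM and DYRK2 138 CPM. Per kb of the longest transcript the values there were 14.8 for DYRK1A and 15.6 for DYRK2. HIPK3 made up 43.6% ± 0.258 of the HIPK sum with amiloride in KMS12-BM, against 35.2% ± 0.442 with DMSO, while HIPK2 made up 5.68% ± 0.0736, against 12.5% ± 0.272. The summed level of the 3 HIPK genes there was 47.1 ± 5.49 CPM per kb with amiloride and 21.9 ± 0.15 CPM per kb with DMSO.

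**Figure D4:**
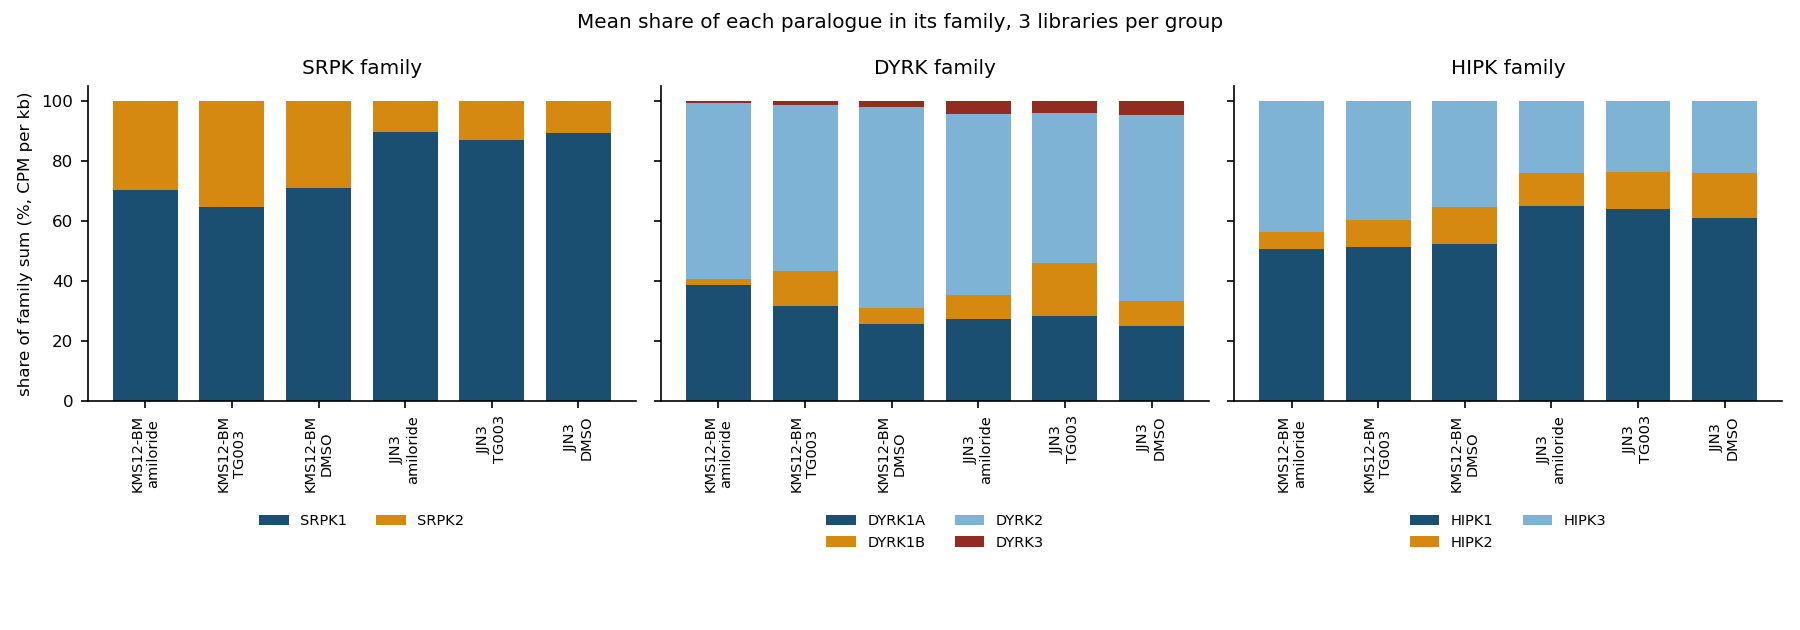
Mean share of each paralogue in the summed CPM per kb of the members of its family described here, in percent, over the 3 libraries of each group. SRPK3, DYRK4 and HIPK4 are left out of the sums. Bars add up to 100% in each group, with amiloride, TG003 and DMSO from left to right in each line. The DYRK1B part is widest in JJN3 with TG003, at 17.9%, and the SRPK2 part is wider in KMS12-BM than in JJN3 under every condition.

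The other CMGC kinases, 53 genes of which 46 were tested in KMS12-BM and 44 in JJN3, are given beside these responses. Of all genes tested, amiloride raised 33.5% and lowered 35.2% in KMS12-BM and raised 19.7% and lowered 23.9% in JJN3, and TG003 raised 26.9% and lowered 31.7% in KMS12-BM and raised 26.2% and lowered 32.1% in JJN3. Amiloride raised 18 and lowered 17 of 46 in KMS12-BM (median 0.056) and raised 10 and lowered 10 of 44 in JJN3 (median -0.034). TG003 raised 21 and lowered 11 of 46 in KMS12-BM (median 0.3) and raised 18 and lowered 6 of 44 in JJN3 (median 0.118), while the medians of the 10 members were -0.258 and -0.167. The extremes given are those among called genes with a mean of at least 5 CPM, and some scarcer genes lay further out. The extremes with amiloride were CLK1 (2.49 ± 0.15) and the neuronal cyclin-dependent kinase CDK5 (-2.77 ± 0.31) in KMS12-BM, and CLK1 (1.11 ± 0.14) and the stress kinase MAPK11 (-1.41 ± 0.16) in JJN3. With TG003 they were CDK11B (1.92 ± 0.25), which is uncertain because it has a near copy, CDK11A, with which reads could be shared, and the atypical kinase MAPK6 (-0.76 ± 0.08) in KMS12-BM. In JJN3 they were CDK5 (2.03 ± 0.14) and the cell cycle kinase CDK6 (-0.74 ± 0.10).

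The CLK kinases, the family TG003 is used against, are relatives of the 10 genes. With TG003, CLK1 rose by 1.89 ± 0.15, CLK4 by 1.82 ± 0.16, CLK3 by 0.91 ± 0.10 and CLK2 by 0.73 ± 0.09 in KMS12-BM. In JJN3, CLK1 rose by 1.99 ± 0.14, CLK2 by 1.25 ± 0.11 and CLK4 by 1.25 ± 0.12, and CLK3 was at 0.21 ± 0.09 (adjusted p = 0.0539). Beside these values, DYRK1B was at 0.99 in KMS12-BM and 1.02 in JJN3, and no other of the 10 kinases had a log2 fold change above 0.37 with TG003 in either line. With amiloride in KMS12-BM, CLK1 rose by 2.49 ± 0.15, CLK3 by 1.76 ± 0.10 and CLK4 by 1.38 ± 0.16, and CLK2 was at -0.18 ± 0.09, not called. In JJN3 with amiloride, CLK1 rose by 1.11 ± 0.14 and CLK3 by 0.36 ± 0.09.

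The substrates and partners of the SRPK kinases and PRPF4B, mainly SR proteins, numbered 22, of which 20 were tested. Amiloride raised 5 and lowered 8 in KMS12-BM (median -0.007; 33.5% and 35.2% of all genes raised and lowered), with SRSF4 at 0.66 ± 0.08 and SRSF3 at -0.92 ± 0.08, and raised 7 and lowered 1 in JJN3 (median 0.106; 19.7% and 23.9% of all genes raised and lowered), with SRSF5 at 0.38 ± 0.07 and the tri-snRNP protein PRPF31 at -0.29 ± 0.10. TG003 raised 2 and lowered 10 in KMS12-BM (median -0.324; 26.9% and 31.7% of all genes raised and lowered), with the exon junction protein RNPS1 at 0.39 ± 0.06 and SRSF2 at -0.79 ± 0.11, and raised 7 and lowered 5 in JJN3 (median 0.116; 26.2% and 32.1% of all genes raised and lowered), with RNPS1 at 0.48 ± 0.07 and SRSF4 at -0.69 ± 0.07.

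All 22 substrates and partners of the DYRK kinases were tested. Amiloride raised 10 and lowered 3 in KMS12-BM (median 0.100; 33.5% and 35.2% of all genes raised and lowered), with LIN52, the DREAM complex subunit that DYRK1A phosphorylates, at 1.18 ± 0.11 and the ubiquitin ligase adaptor DDB1 at -1.36 ± 0.08. In JJN3 amiloride raised 2 and lowered 4 (median 0.014; 19.7% and 23.9% of all genes raised and lowered), with EIF2B5 at 0.27 ± 0.07 and the ubiquitin ligase SIAH2 at -0.56 ± 0.07. TG003 raised 4 and lowered 10 in KMS12-BM (median -0.190; 26.9% and 31.7% of all genes raised and lowered), with the microtubule-severing subunit KATNA1 at 0.43 ± 0.11 and the cyclin CCND1 at -0.73 ± 0.18, and raised 3 and lowered 7 in JJN3 (median -0.062; 26.2% and 32.1% of all genes raised and lowered), with DCAF1 at 0.46 ± 0.07 and SIAH2 at -0.56 ± 0.07.

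Every substrate or partner of the HIPK kinases that was called with TG003 was lower. Of 20 genes, 17 were tested in KMS12-BM and 18 in JJN3, and TG003 raised 0 and lowered 10 in KMS12-BM (median -0.265) and raised 0 and lowered 11 in JJN3 (median -0.282). Of all genes, TG003 raised 26.9% and lowered 31.7% in KMS12-BM and raised 26.2% and lowered 32.1% in JJN3. At an unadjusted p under 0.05 in edgeR, 0 were higher in either line and 10 and 12 were lower. On the same libraries, DESeq2 and limma voom gave 0 higher and 10 and 11 lower. The gene that fell most in JJN3 was the transcription factor RUNX1 (-0.93 ± 0.16), and the smallest called falls were those of the p53 partner DAXX (-0.21 ± 0.08) in KMS12-BM and of MDM2 (-0.20 ± 0.07) in JJN3. The HIPK genes themselves were lowered by TG003 in 2 of 3 cases in KMS12-BM and 3 of 3 in JJN3, and a link with the falls in the list was not tested. The list was chosen with earlier results of these data known. Amiloride raised 8 and lowered 5 in KMS12-BM (median 0.226; 33.5% and 35.2% of all genes raised and lowered), from the coactivator CREBBP at 1.48 ± 0.12 to the adhesion protein ZYX at -1.31 ± 0.07, and raised 5 and lowered 6 in JJN3 (median 0.053; 19.7% and 23.9% of all genes raised and lowered), from RUNX1 at 0.65 ± 0.15 to the chromatin protein HMGA1 at -0.60 ± 0.09.

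The profile of each kinase over the 6 group means of log2 CPM, centred on its own mean, was set against 10815 other genes. For 9 of the 10 kinases the nearest gene is given here, which by root mean square difference (log2) was C10orf88 for HIPK3 (0.0379), CCNT1 for DYRK1A (0.0529), HMCES for HIPK1 (0.0578), XPO4 for SRPK1 (0.0615), ARHGEF7 for SRPK2 (0.0738), SSBP3 for DYRK1B (0.0865), VGLL4 for HIPK2 (0.0896), PSMD6 for PRPF4B (0.0910) and FAM98A for DYRK3 (0.101). No member was the nearest gene of another. Among the 10, the closest pairs were SRPK1 with PRPF4B and DYRK3 with HIPK2, at 0.254 each, and DYRK1B was farthest from all others, at 0.795 from its nearest member. SRPK1's own profile spread by only 0.237 around its mean, less than its distance from PRPF4B, so that distance does not show alike profiles. Over 6 group means a likeness of profiles is a description, chosen as the smallest of many.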

How the data were processed

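RNA was sequenced in 18 libraries, 3 in each of 6 groups. Per the submitters' processing notes, cutadapt 1.4, TopHat2 2.0.11, HTSeq 0.6.1p1, DESeq2 1.12.4 and hg19 were used; the sources used here give neither the annotation nor the strand setting of the counting. A strand-specific kit was used, per the labels' protocols; the labels name total RNA and the design text poly(A)+ RNA. The authors deposited whole-number read counts per Ensembl gene, which were the unit analysed; their 3 tables of normalised values were not used. Symbols, exon lengths and GC content came from GENCODE release 44 on GRCh37 (55538 of 57905 identifiers matched).

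Each line's 9 libraries were fitted with edgeR 4.0.16 (R 4.3.3): filterByExpr (minimum count 10, total 15), TMM scaling and robust quasi-likelihood F tests, Benjamini-Hochberg over all genes, called at an adjusted p under 0.05. The line comparison and both interactions came from 1 fit to 18 libraries. The SE is the log2 fold change divided by the square root of F, an approximation, and 95% intervals were built from it with the t quantile of each gene's degrees of freedom. CPM used TMM factors over all libraries. Counts cover reads, not independent molecules. The fit was tested on simulated counts.

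The members and lists were chosen with earlier results of these data known. Named were all members, CLK1 to CLK4, per drug comparison the highest and the lowest called gene of each list with a mean of at least 5 CPM, and each member's nearest profile. Some genes chosen by this rule are not reported here. The alternatives were DESeq2 size factors, 2 other filters, DESeq2 1.42.0, limma 3.58.1 voom, a replicate block, the compared groups alone, a GC trend, summed pseudogenes and each library left out. The sets of library numbers in the titles were taken as pairing TG003 with DMSO, since deviations from the group means correlated at 0.108 to 0.271 in the KMS12-BM pairs and 0.239 to 0.281 in the JJN3 pairs; the fit without the block was kept. Added after seeing the data were an exon-length trend and coding genes alone.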

Additional observations from a re-analysis of the deposited data

Results flagged for a closer look

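In 9 cases the response of a kinase to a drug differed between the lines by the interaction test of edgeR (adjusted over 17772 genes). With amiloride, given to KMS12-BM at 0.1 mM and to JJN3 at 0.4 mM, the KMS12-BM minus JJN3 difference in log2 fold change was 1.25 for HIPK3, 1.03 for DYRK1A, 0.81 for HIPK1, 0.39 for DYRK2, 0.37 for SRPK2, -0.80 for DYRK3 and -0.88 for DYRK1B. With TG003, at 0.4 mM in both lines, it was -0.36 for SRPK1 and -0.57 for PRPF4B. The amiloride differences of SRPK2, DYRK2 and DYRK1B lay at 0.09, 0.12 and -0.35 once the GC trend was removed, and were then not called.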

How the results depend on the processing

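The number of kinases called moved by 1.5 times or more only in the TG003 interaction, where the 2 calls became 1 with no filter on low counts, ranged from 1 to 2 with a library left out and were 3 with nuclear coding genes alone. The number of all genes called moved past 1.5 times with nuclear coding genes alone, to 5492 for TG003 against DMSO in KMS12-BM, 5587 for TG003 against DMSO in JJN3 and 6088 for amiloride against TG003 in JJN3; fewer genes are tested there. Of the single fold changes, 3 reversed, all with the GC trend removed: SRPK2 (-0.003) and DYRK1B (0.136) for amiloride in KMS12-BM and PRPF4B (-0.235) in the amiloride interaction; the cause was not tested. With the exon-length trend removed, SRPK1 was called for amiloride against TG003 in JJN3 (0.19, adjusted p = 0.0461) and in the amiloride interaction (0.27, 0.0362), where DESeq2 (0.0322) and voom (0.0476) called it too. With no filter SRPK1 was not called in the TG003 interaction (0.0530). With libraries left out, 569 member values kept their side of the threshold, 30 lost their call and 1 gained it.

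The library numbers in the titles form sets of 1 library per group. With these sets as a replicate block, 9 and 7 kinases were called for amiloride and TG003 in KMS12-BM, 4 and 8 in JJN3, and no member's call changed. Deviations of the 18 same-set pairs correlated at -0.061 to 0.444 (13 over 0.1) and those of the 36 different-set pairs at -0.409 to 0.184 (3 over 0.1). Deviations from a group mean cancel out within the group, so the different-set values are not independent of the same-set ones. The sets were not taken as pairing amiloride with DMSO, since not every such pair was over 0.1.

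Depth limits DYRK1B and DYRK3, with 36 to 240 and 38 to 227 reads per library, and 3 libraries of unstated origin limit every p.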
